A study of Homo sapiens with 3 samples.

Results

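The 54 genes described here build and equip the respiratory chain without being subunits of it: 33 assembly factors of complexes I to V, 12 genes of mitochondrial iron-sulfur cluster synthesis and 9 genes of coenzyme Q synthesis. They were chosen by symbol from a fixed list, with no measured value in the rule, but with earlier results of these data known. Each of the 54 had a row among the 17595 genes of the table. RNA 5′ ends were counted per gene in 3 libraries of 1 group, HEK293, a human embryonic kidney line in wide laboratory use, with no treatment or genotype named in the labels. Each library started from 1000 lysed cells to which ERCC control RNA had been added at 20000 molecules per cell, and the equivalent of 100 cells entered a PCR of 18 cycles. The libraries are called 20, 21 and 23 after the index in their column headings, since no label links a column to a replicate number. No condition can be compared in 1 group, so the comparisons below are between genes and between libraries of the same cells, and the labels do not say whether the libraries came from separate cultures.

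Total counts were 1532672, 1384172 and 1601555 in libraries 20, 21 and 23, of which the control RNA took 3.49 to 3.85%. Levels are counts per 1000000 counts of genes (CPM), so that 1 count was worth 0.647 to 0.751 CPM. A tag marks the 5′ end of a cDNA, so CPM was not divided by length and is called a level per transcript below. The sources used here do not say whether a count is a read or a molecule. Values per kilobase of annotated transcript are given beside CPM where genes are compared. Of the neuronal-type genes often seen in HEK293, 4 of 4 were listed, with STMN1 at 623 ± 16.5 CPM (SD, n = 3). Among markers of other cells, VWF was listed for endothelium (1 of 3) and COL1A1 and LUM for fibroblasts (2 of 4), with summed levels of at most 5.26 CPM in any library for either list. The hepatocyte markers ALB, APOB and TTR had no row. In bulk libraries like these, fewer cells that express a gene and less RNA per cell cannot be told apart.

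The complexes of the respiratory chain are put together in the inner mitochondrial membrane from subunits of nuclear and mitochondrial origin. Assembly factors hold intermediates, insert cofactors such as flavin, heme, copper and iron-sulfur clusters, and leave before the complex is complete. Iron-sulfur clusters are made on a scaffold protein from cysteine sulfur, iron and electrons, then passed to carrier proteins and to enzymes including complexes I, II and III. Coenzyme Q, the lipid that carries electrons from complexes I and II to complex III, is built in the same compartment by joining a polyprenyl tail to a benzene ring that is then modified. Inherited defects in many of these genes cause mitochondrial disease.

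Together the 54 genes took 0.562% ± 0.0063 of the gene counts (SD, n = 3), with 0.567, 0.565 and 0.555% in libraries 20, 21 and 23, while they made up 0.307% of the listed genes. Their median level was 60.5 ± 3.55 CPM, against 19.6 CPM for the median of the 11424 genes with at least 10 pooled counts, and all 54 had at least 10 pooled counts. Levels ran over a 76.7-fold range, from NDUFAF3 at 527 CPM to FDXR at 6.87 CPM. A mean of at least 10 CPM was reached by 52 of the 54 genes, against 44.6% of all listed genes, and a mean of at least 100 CPM by 18, against 9.91% of all listed genes. The 2 below 10 CPM were SDHAF2 and FDXR.

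Against the median gene, 45 of the 54 were higher in edgeR's quasi-likelihood test with Benjamini-Hochberg adjustment over all 11424 genes at 0.05, where 43.9% of all genes tested were higher. A further 5 were lower, SDHAF2, COX18, IBA57, FDXR and PDSS2, where 42.9% of all genes tested were lower. The other 4, NDUFAF5, NDUFAF7, NUBPL and ATPAF2, did not pass in either direction. DESeq2 called 3 lower, against 4206 of all 11424 genes tested. With no minimum count in edgeR the median gene stood at 7.16 CPM, and 52 of the 54 were higher and the other 2 did not pass. With edgeR's filterByExpr the median gene stood at 32.8 CPM, and 37 were higher and 8 lower, with SDHAF2 and FDXR not tested. Of all 8163 genes tested in that setting, 3596 were higher and 3420 lower. Ordered by mean level, 43 of the 53 pairs of neighbours had overlapping library ranges. The 10 that did not lay mostly at the top, where NDUFAF3, COX17, BOLA3, COX16 and NDUFAF4 followed each other with no overlap, and below COX20 only COX18 and SDHAF2 were separated in this way.

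**Figure D1:**
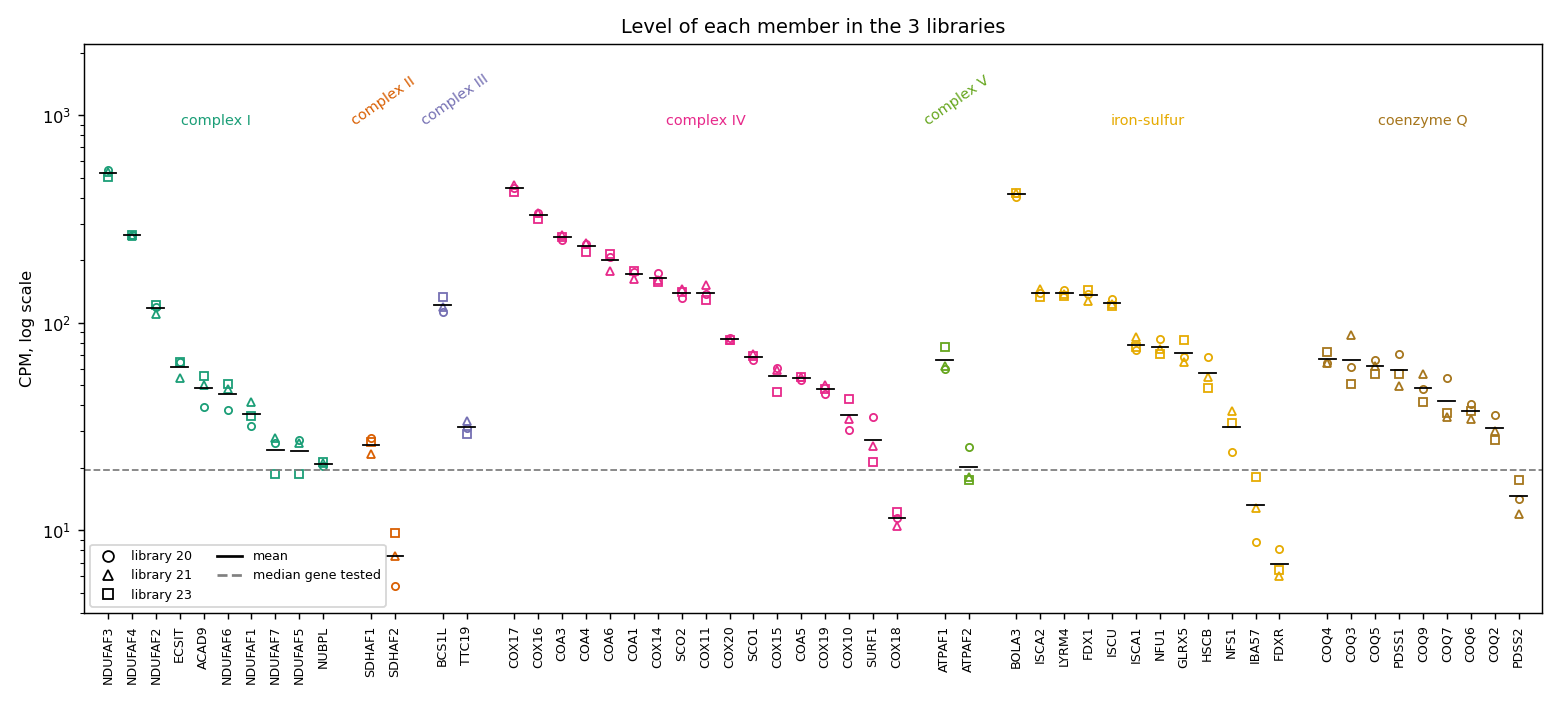
Level of each of the 54 genes in CPM on a log axis, grouped by the complex or pathway it serves, with a symbol per library, a bar at the mean of the 3 libraries and a dashed line at the median gene tested (19.6 CPM). NDUFAF3, COX17 and BOLA3 lie at the top, with means of 527, 444 and 415 CPM, whereas the coenzyme Q genes all average between 14.6 and 66.7 CPM.

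Complex I, which oxidises NADH, had 10 assembly genes with a median of 47.0 ± 7.47 CPM. NDUFAF3 had 543, 534 and 503 CPM in libraries 20, 21 and 23, a mean of 527 ± 21.4 CPM, and encodes a factor that works early on the matrix arm. Its partner NDUFAF4 had 266, 262 and 266 CPM, lower than NDUFAF3 in each library. The log2 ratio of NDUFAF3 over NDUFAF4 was 0.99 ± 0.064 per transcript and 1.25 per kilobase. NDUFAF2, a factor of late intermediates, had 119, 110.5 and 122 CPM, and NDUFAF1, which belongs to the membrane arm intermediate, had 31.8, 41.3 and 35.6 CPM. The log2 ratio of NDUFAF2 over NDUFAF1 was 1.69 ± 0.25 per transcript and 2.71 per kilobase. NDUFAF3, NDUFAF4 and NDUFAF2 were the 3 genes of this group above 100 CPM.

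ECSIT and ACAD9 act with NDUFAF1 in the same membrane arm intermediate, where ACAD9 is an acyl-CoA dehydrogenase with a role in assembly. ECSIT had 64.4, 54.1 and 64.7 CPM and ACAD9 had 39.3, 50.3 and 55.6 CPM, so that their ranges overlapped while ECSIT was higher within each library, by a log2 ratio of 0.34 ± 0.32 (0.87 per kilobase). NDUFAF6 averaged 45.5 ± 6.65 CPM. NDUFAF5, an arginine hydroxylase with a methyltransferase fold, had 24.1 ± 4.601 CPM, and NDUFAF7, an arginine methyltransferase, had 24.3 ± 4.87 CPM. The lowest was NUBPL, which delivers iron-sulfur clusters to complex I, at 20.3, 21.0 and 21.4 CPM. The last 3 genes could not be separated from the median gene by edgeR, with adjusted p-values of 0.0809 for NDUFAF5, 0.0663 for NDUFAF7 and 0.600 for NUBPL.

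The complexes with few assembly genes in the list each paired a higher and a lower gene. For complex II, succinate dehydrogenase, SDHAF1, which serves the iron-sulfur subunit, had 27.8, 23.3 and 26.5 CPM. SDHAF2, which promotes flavin attachment to SDHA, had 5.42, 7.51 and 9.71 CPM, on 8, 10 and 15 counts. SDHAF2 was below SDHAF1 in each library, by a log2 ratio of -1.76 ± 0.46 (-2.63 per kilobase), and SDHAF2 made up 22.6% of the pooled counts of the pair (95% exact binomial interval 16.1 to 30.3%). For complex III, TTC19, which helps to clear fragments of the Rieske protein, had 31.2, 33.8 and 29.1 CPM and BCS1L, the AAA protein that inserts the Rieske iron-sulfur protein, had 113, 119 and 133 CPM. TTC19 was thus below BCS1L without overlap, by a log2 ratio of -1.94 ± 0.20 (-2.52 per kilobase). For complex V, ATP synthase, ATPAF2, which chaperones the alpha subunit, had 25.1, 18.0 and 17.5 CPM, and ATPAF1, which chaperones the beta subunit, had 59.6, 61.6 and 76.3 CPM. The log2 ratio of ATPAF2 over ATPAF1 was -1.70 ± 0.44 per transcript but only -0.29 per kilobase, because the annotated ATPAF1 transcript has 4158 bases and that of ATPAF2 has 1564.

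Complex IV, cytochrome c oxidase, had the most assembly genes, 17, and a median of 135 ± 9.26 CPM. Of the 17 genes, 16 were higher than the median gene, against 43.9% of all genes tested. Copper reaches the MT-CO1 and MT-CO2 subunits of complex IV through a relay that starts with COX17 in the intermembrane space. COX17 had 445, 459 and 428 CPM. COX11, which places copper in MT-CO1, had 138, 153 and 128 CPM. The log2 ratio of COX11 over COX17 was -1.67 ± 0.076 per transcript and -3.54 per kilobase. SCO2 had 132, 146 and 141 CPM and its paralog SCO1, which acts with it on MT-CO2, had 66.4, 70.6 and 69.2 CPM. SCO2 over SCO1 had a log2 ratio of 1.02 ± 0.027, with the smallest SD of the 20 pairs compared, and 4.21 per kilobase, where the annotated SCO1 transcript of 9612 bases weighs in. COX19 and COA6, other soluble factors of the copper relay, averaged 47.9 ± 2.47 and 199.9 ± 19.2 CPM.

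Heme A, the prosthetic group of MT-CO1, is made by COX10 and then COX15. COX15 had 60.3, 59.4 and 46.6 CPM and COX10 had 30.5, 34.6 and 42.7 CPM, so that COX15 was higher in each library while the log2 ratio was 0.98 in library 20, 0.77 in library 21 and 0.12 in library 23. Its mean was 0.62 ± 0.44 per transcript and 0.91 per kilobase. SURF1, which acts at the heme step and is mutated in Leigh syndrome, averaged 27.4 ± 7.12 CPM. COX14 and COA3 bind newly made MT-CO1 and link its translation to assembly. COX14 had 173, 161 and 158 CPM and COA3 had 251, 265 and 259 CPM, a log2 ratio of -0.66 ± 0.11 (-0.59 per kilobase). MT-CO2 is handled by COX18, which inserts its tail into the membrane, and by its chaperone COX20. COX18 had 11.5, 10.5 and 12.3 CPM, the lowest of the group, and COX20 had 84.0, 82.7 and 82.8 CPM. COX18 was below COX20 by a log2 ratio of -2.83 ± 0.10 (-4.21 per kilobase), and it was the only complex IV factor called lower than the median gene.

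Several small proteins of this group were among its highest genes. COX16, which acts on MT-CO2, averaged 329.9 ± 12.3 CPM, COA4 234 ± 12.5 CPM and COA1 172 ± 8.84 CPM, while COA5 averaged 54.2 ± 1.197 CPM. The proteins with twin cysteine motifs that are imported into the intermembrane space, COX17, COX19, COA4, COA5 and COA6, did not share a level: they ran from 47.9 to 444 CPM with a median of 199.9 ± 19.2 CPM. That set of 5 was put together after the values were seen.

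The 12 iron-sulfur genes had a median of 79.2 ± 0.53 CPM and covered the widest range of the groups, 60.4-fold from BOLA3 to FDXR. Of the 12, 10 were higher and 2 lower than the median gene, against 43.9% and 42.9% of all genes tested. At the core of the machinery, the cysteine desulfurase NFS1 had 23.7, 37.6 and 33.0 CPM, its small partner LYRM4 had 143, 138 and 135 CPM, and the scaffold ISCU had 131, 122 and 120.3 CPM. NFS1 thus lay below both partners in each library, by a log2 ratio of -2.00 ± 0.40 to ISCU (-3.60 per kilobase). The log2 ratio of LYRM4 over NFS1 was 2.15 ± 0.38 per transcript and 0.87 per kilobase, since the annotated LYRM4 transcript has 7312 bases. FDX1 is a mitochondrial ferredoxin and FDXR the reductase that passes electrons to it. FDXR had 8.13, 6.01 and 6.47 CPM, on 12, 8 and 10 counts, and FDX1 had 138, 127 and 144 CPM. FDXR was the lowest of the 54 genes and stood 19.02-fold below FDX1, a log2 ratio of -4.25 ± 0.20 (-3.48 per kilobase), the widest of the 20 pairs per transcript.

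In the transfer steps, the co-chaperone HSCB had 68.4, 54.9 and 48.5 CPM and the glutaredoxin GLRX5 had 68.4, 64.6 and 82.2 CPM. GLRX5 and HSCB had equal counts in library 20 and overlapping ranges, and their order turned per kilobase (log2 ratio 0.33 ± 0.39 per transcript, -0.16 per kilobase). The A-type proteins ISCA2 and ISCA1, which work late in cluster synthesis together with IBA57, had 139.6, 145 and 133 CPM for ISCA2 and 73.9, 84.9 and 76.3 CPM for ISCA1. ISCA2 was above ISCA1 without overlap, by 0.83 ± 0.077 on the log2 scale (0.41 per kilobase). IBA57 was far lower, at 8.81, 12.8 and 18.1 CPM on 13, 17 and 28 counts. Among the late targeting factors, BOLA3 had 404, 421 and 421 CPM and NFU1 had 83.3, 74.4 and 70.5 CPM, a log2 ratio of 2.45 ± 0.16 (3.64 per kilobase). BOLA3 and NFU1 are both needed for the lipoate-dependent enzymes and are mutated in multiple mitochondrial dysfunctions syndromes.

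The 9 coenzyme Q genes spanned a 4.58-fold range, against 60.4-fold for the iron-sulfur genes, 38.8-fold for the complex IV factors and 25.2-fold for the complex I factors. Their median was 48.4 ± 6.48 CPM, and none of the 9 averaged 100 CPM or more. The highest, COQ4, a member of the synthesis complex, had 63.7, 63.9 and 72.5 CPM. The lowest was PDSS2, with 14.2, 12.02 and 17.5 CPM. It encodes a subunit of the enzyme that makes the polyprenyl tail, and the other subunit, PDSS1, had 70.5, 49.6 and 56.9 CPM. PDSS2 was below PDSS1 in each library by a log2 ratio of -1.99 ± 0.30 (-3.12 per kilobase). COQ2, which joins tail and ring, averaged 31.0 ± 4.45 CPM, and COQ6, a ring hydroxylase, 37.6 ± 3.05 CPM.

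Per transcript, the pairs of the later ring modifications showed no stable order. The methyltransferases COQ3, with 60.98, 87.2 and 50.5 CPM, and COQ5, with 66.4, 61.6 and 56.9 CPM, overlapped, and COQ3 was above COQ5 in library 21 only. The share of COQ3 in the pooled counts of the pair was 51.4% (95% exact interval 47.2 to 55.7%), and the log2 ratio was 0.07 ± 0.37 per transcript and 0.27 per kilobase. COQ9, a lipid-binding protein that presents the substrate, had 48.1, 56.4 and 41.4 CPM, and the hydroxylase COQ7 that it serves had 54.2, 35.3 and 36.9 CPM. COQ9 was above COQ7 in 2 of the 3 libraries, with a share of 53.3% of their pooled counts (48.2 to 58.3%). The log2 ratio of COQ9 over COQ7 was 0.22 ± 0.42 per transcript and 0.89 per kilobase, a move beyond its SD.

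In all, 20 pairs of genes from the same complex or pathway were compared, some of the same step and some of successive or separate steps. In 17 of them the order was the same in all 3 libraries, and in 18 the exact interval of the share in the pooled counts left out 50%. These intervals cover counting error only. The same counts were not made for pairs of unrelated genes, so they do not set these pairs apart. The exact 2-sided sign-flip permutation test over libraries gave p = 0.25 for each of those 17 pairs, which is the smallest that 3 libraries can give. Per kilobase, 16 of the 20 ratios moved by more than their SD between libraries with the same sign, and GLRX5 over HSCB changed sign, so the sizes above depend on the scale more than the directions do.

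**Figure D2:**
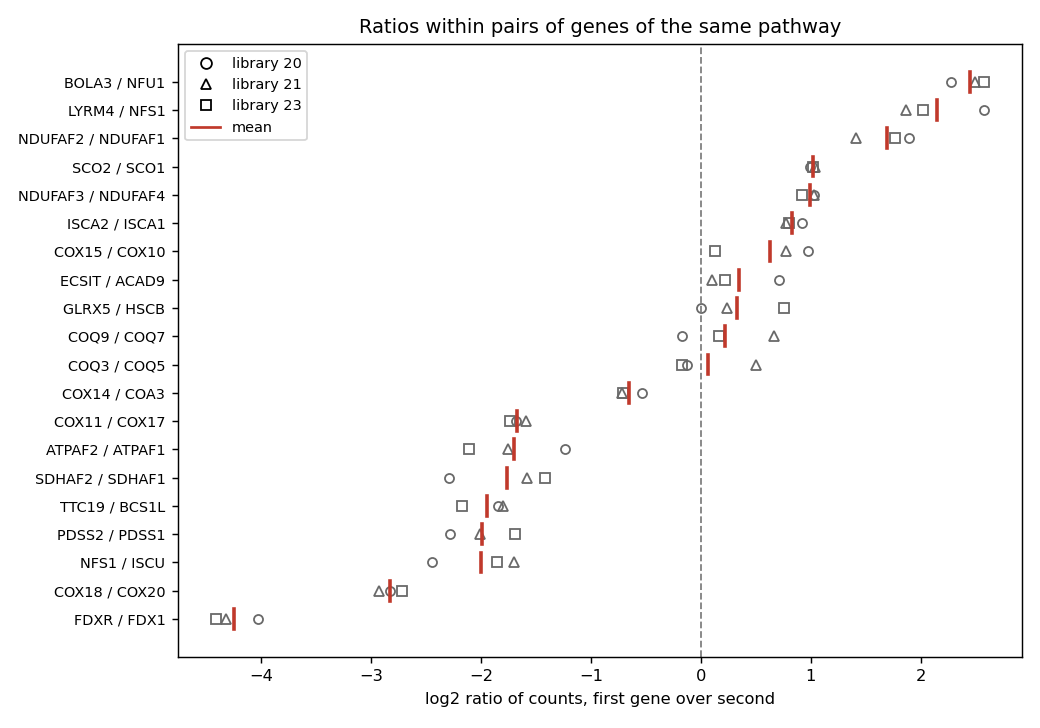
Log2 ratio of counts within each of the 20 pairs, the gene named first over the second, with a symbol per library, a red bar at the mean and a dashed line at equal counts. The ratios run from -4.25 for FDXR over FDX1 to 2.45 for BOLA3 over NFU1, and the libraries fall on both sides of or on the line for COQ9 over COQ7, COQ3 over COQ5 and GLRX5 over HSCB.

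The median assembly factor was below the median nuclear-encoded subunit of the same complex, in all 5 complexes and each library. The comparison is between list medians, not between a factor and the subunit it acts on. For complex I the median was 47.0 ± 7.47 CPM over 10 assembly factors and 356 ± 17.8 CPM over 35 subunits, a log2 ratio of -2.93 ± 0.31. For complex II it was 16.7 ± 1.36 CPM for 2 assembly factors and 85.2 ± 10.98 CPM for 3 subunits (-2.35 ± 0.18), and for complex III 76.4 ± 4.36 CPM for 2 assembly factors and 571 ± 2.48 CPM for 8 subunits (-2.90 ± 0.088). For complex IV it was 135 ± 9.26 CPM for 17 assembly factors and 866 ± 9.78 CPM for 11 subunits (-2.68 ± 0.083). The gap was widest for complex V, where 2 assembly factors had a median of 43.0 ± 3.59 CPM and 16 subunits a median of 841 ± 38.3 CPM, 19.6-fold higher (-4.29 ± 0.17). These ratios of medians are descriptions without a test, and 4 subunit genes of the lists (NDUFA7, NDUFB8, SDHD and UQCR11) were not analysed here. Per kilobase the log2 ratios were -3.87 for complex I, -1.40 for II, -2.64 for III and -3.61 for IV, and complex V was not computed because its subunits stand in the table under older symbols without a matched length.

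The distributions still met at their edges. NDUFAF3 was the only one of the 33 assembly factors above the median subunit of its own complex. In complexes II, III and V, which had 2 of the 33 assembly factors each, all of them lay below the lowest subunit. In complex IV this held for 8 of 17, the lowest subunit being COX8A at 99.7 CPM. In complex I it held for 0 of 10. The subunits NDUFA13 and NDUFV2, with means of 3.90 and 13.0 CPM, lay below the lowest assembly factor, NUBPL at 20.9 CPM. Assembly factors outside the 33 did not enter this comparison and did not all lie below. For example, the complex III factor UQCC2 averaged 330.4 ± 23.0 CPM, above the lowest complex III subunit, UQCRC1, at 209 CPM. The highest subunits were COX7C at 1708 CPM for complex IV, UQCRH at 1417 CPM for III, ATP5G3 at 1330.1 CPM for V, NDUFB2 at 1015 CPM for I and SDHB at 314 CPM for II.

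**Figure D3:**
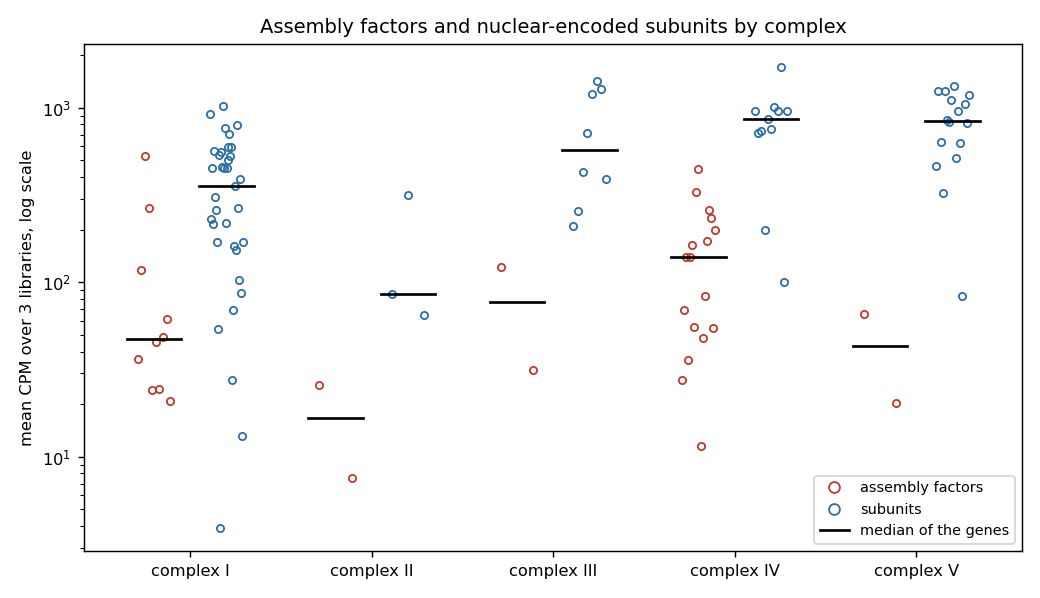
Mean CPM over the 3 libraries, on a log axis, of each assembly factor (red, left) and each nuclear-encoded subunit (blue, right) of complexes I to V, with bars at the median of the genes. The bar of the assembly factors lies below that of the subunits in each complex, and the points overlap in complexes I and IV.

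Other genes of the same machineries were read as 3 lists. Of 18 other assembly factors, all were listed, with a median of 84.8 ± 5.94 CPM, and 15 were higher than the median gene by edgeR while the other 3 did not pass. The highest were C17orf89, an older symbol of the complex I factor NDUFAF8, at 369.5 ± 22.4 CPM, and UQCC2, a factor of complex III, at 330.4 ± 23.0 CPM. Of 15 other iron-sulfur genes, mostly of the cytosolic machinery, 14 were tested, and 8 were higher and 3 lower, where 43.9% of all genes tested were higher and 42.9% lower. The median over the 15 was 39.9 ± 2.01 CPM, against 79.2 CPM for the 12 described above. The highest were FAM96B at 344 ± 29.2 CPM and CIAPIN1 at 205 ± 13.6 CPM, both of the cytosolic pathway. FDX1L, now named FDX2, the ferredoxin mainly linked to cluster synthesis, had 5 pooled counts and was picked out after its value was seen. Of 5 other coenzyme Q genes 4 were listed and HPDL was not analysed here. Their median was 21.6 ± 3.08 CPM, close to the 19.6 CPM of the median gene, 2 were higher and 1 lower, and COQ10B at 29.9 ± 4.75 CPM and ADCK3, now named COQ8A, at 28.7 ± 2.02 CPM were the highest.

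Short proteins were prominent among the high genes. The median coding length of the 54 genes was 271 codons, against 462 codons for the 10077 protein-coding genes tested, by the principal transcript of the GENCODE annotation. Across the 54 genes, coding length and mean level had a Spearman correlation of -0.61, against -0.34 across the 10077, and it was -0.85 in the 12 iron-sulfur genes, -0.59 in the 17 complex IV genes and -0.43 in the 10 complex I genes. Genes are not independent replicates, and all points share the same 3 libraries, so these are descriptions. With whole transcript length the values were -0.38 for the 54 genes and -0.30 for the 10077, and they were -0.17 for the iron-sulfur genes, -0.70 for the complex IV genes and -0.45 for the complex I genes.

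Up to 150 codons, 14 of the 54 genes had a median of 168 ± 6.66 CPM and 9 of 14 reached 100 CPM, while the 664 protein-coding genes of that size had a median of 118 ± 1.67 CPM and 53% of them reached 100 CPM. Above 150 codons, 40 of the 54 genes had a median of 52.9 ± 3.76 CPM and 9 of 40 reached 100 CPM, while the 9413 protein-coding genes of that size had a median of 20.2 ± 1.02 CPM and 13.7% reached 100 CPM. The limit of 150 codons was set after the values were seen. SDHAF1, with 115 codons and 25.9 CPM, was the lowest of the short genes, and NDUFAF3, with 184 codons, was the highest of the longer ones.

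**Figure D4:**
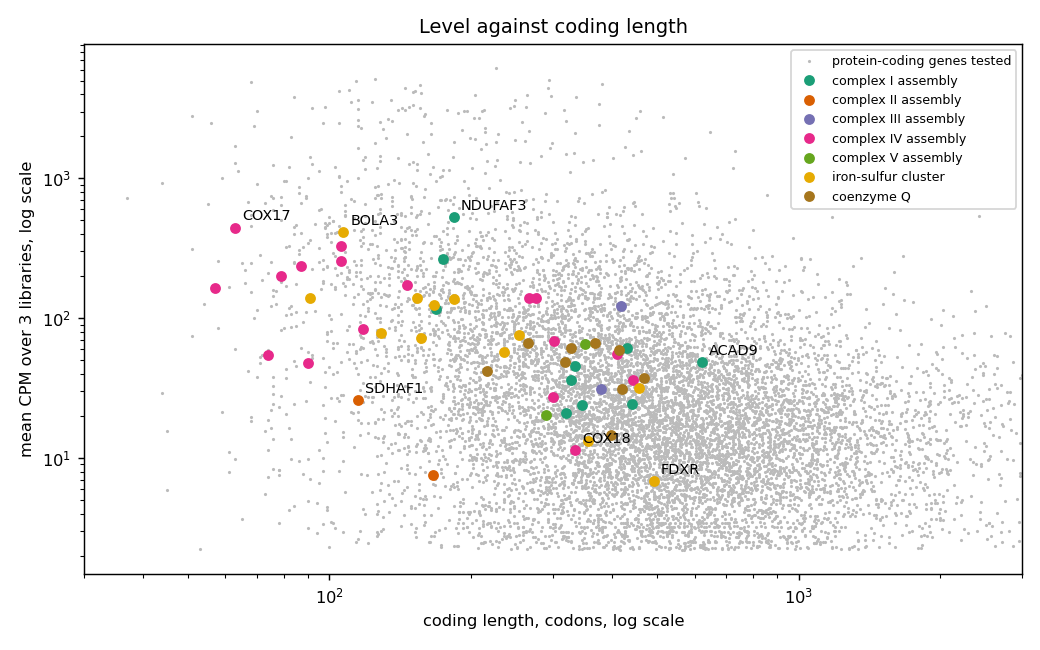
Mean CPM over the 3 libraries against coding length in codons, both on log axes, for the 54 genes (coloured by group) and the protein-coding genes tested (grey); grey genes longer than the axis are not drawn. COX17 and BOLA3 lie at the short, high end with 444 and 415 CPM, and FDXR at the long, low end with 6.87 CPM.

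Many of these genes start close to a neighbour on the opposite strand, with or without overlap between the genes. A listed gene on the opposite strand, pointing away and with its start within 1000 bases, was found for 26 of the 54 (48.1%), against 19.2% of the 10077 protein-coding genes tested, and the neighbour was protein-coding for 22 (40.7%), against 17.1%. The counts of the partners did not follow a common pattern in the examples looked at after their values were seen. NFS1 averaged 31.4 CPM and its neighbour ROMO1 642 ± 10.8 CPM, and COQ9 averaged 48.6 CPM and CIAPIN1 205 ± 13.6 CPM. The reverse held for BCS1L at 121.5 CPM and ZNF142 at 6.80 ± 3.34 CPM, and for SCO1 at 68.8 CPM and ADPRM at 6.76 ± 2.01 CPM. COQ4 and TRUB2, at 66.7 and 62.6 CPM, and HSCB and CHEK2, at 57.3 and 67.1 CPM, were close. Overlap bears on the counts: 26 of the 54 genes (48.1%) overlap another listed gene in the annotation, against 31.6% of the 10077, and whether the counting used strand is not given in the sources used here. Many gene pairs stand both here and among the neighbours with close starts, for example BCS1L with ZNF142 and NFS1 with ROMO1. Some overlapping rows had far more counts than the gene itself. NFS1 had 136 pooled counts and ROMO1 2796, COX20 had 362 and HNRNPU 1183, and COQ9 had 210 and CIAPIN1 891. SURF1 had 119 and SURF2 370, and NDUFAF7 had 105 and CEBPZ 350. Smaller excesses were seen for COX15, with 240 against 383 for CUTC, TTC19, with 136 against 197 for NCOR1, and HSCB, with 249 against 291 for CHEK2. How reads in the shared stretches were assigned was not tested. The levels of the 26 overlapping genes, and the pair ratios that use them, are uncertain to that extent. Other rows were low: COX10-AS1 had 29 pooled counts, TYMP, which overlaps SCO2, had 17, BOLA3-AS1 had 9, and IBA57-AS1 and the pseudogene ISCA1P4 had 1 each.

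The promoters of these genes were searched for 3 short motifs on both strands, in RefSeq sequence from 250 bases before to 50 bases after the start (GRCh38.p14, not the build of the counts). A promoter was given for 49 of the 54 genes, not for COQ3, COQ4, COX11, NDUFAF6 and SCO2. CGCATGCG, the core bound by NRF1, a regulator of many nuclear genes for mitochondrial proteins, was found in 4 of 49 (8.16%), in 4.94% of the 8282 promoters of genes tested and in 2.46% of all 27305. CCGGAAG, an ETS core, was found in 14 (28.6%), against 24% of the genes tested and 12.2% of all. AAGATGGCG, a YY1 core, was found in 6 (12.2%), against 5.39% of the genes tested and 2.14% of all. In all, 21 genes (42.9%) held at least 1 of them, against 31.2% and 15.5%. GC content was 66.0% in the median promoter of the 49 and 67.6% in that of the genes tested. A match of letters is a description and does not show binding.

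The 4 promoters with the NRF1 core are shown because they belong to genes whose levels were far apart: COX17 averaged 444 CPM, NFU1 76.1 CPM, NDUFAF5 24.1 CPM and COX18 11.4 CPM. Each line gives the 120 bases before and 10 bases from the most upstream RefSeq start, 5′ to 3′ on the strand of the gene, with the core in capitals. They lie at chr3:119677397-119677526 (minus strand) for COX17, chr2:69437619-69437748 (minus) for NFU1, chr20:13784908-13785037 (plus) for NDUFAF5 and chr4:73069750-73069879 (minus) for COX18 in GRCh38.p14.
COX17: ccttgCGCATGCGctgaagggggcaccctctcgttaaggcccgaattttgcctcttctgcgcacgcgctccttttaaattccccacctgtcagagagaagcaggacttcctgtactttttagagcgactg
NFU1: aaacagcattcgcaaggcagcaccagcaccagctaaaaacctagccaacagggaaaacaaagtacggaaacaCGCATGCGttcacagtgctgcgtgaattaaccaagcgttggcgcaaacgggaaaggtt
NDUFAF5: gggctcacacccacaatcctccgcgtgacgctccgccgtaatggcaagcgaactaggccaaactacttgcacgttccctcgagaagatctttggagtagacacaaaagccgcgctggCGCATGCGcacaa
COX18: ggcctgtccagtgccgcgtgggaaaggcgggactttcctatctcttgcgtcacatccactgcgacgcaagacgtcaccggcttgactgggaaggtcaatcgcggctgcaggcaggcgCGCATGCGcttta
The core begins 3 bases before the start in COX18 and in NDUFAF5, 48 bases before it in NFU1 and 115 bases before it in COX17. It thus spans the start in COX18 and in NDUFAF5. The same letters stood in the promoters of COX17, a gene near the top of the 54, and of COX18, a gene near the bottom. Outside the printed lines, COX17 also held the ETS core and NFU1 the YY1 core.

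Between libraries the 54 genes differed about as often as genes in general. The exact binomial test per gene and pair of libraries, with p-values adjusted by Benjamini-Hochberg across genes and library pairs and a threshold of 0.05, called 0 of the 54 genes and 64 of 11424 genes tested (0.56%). At an unadjusted p below 0.05, 9 of the 54 differed in at least 1 pair, against 15.9% of all genes tested, and these were ACAD9, COA6, COQ3, COQ7, HSCB, IBA57, NFS1, PDSS1 and SURF1. COQ3 came closest: library 21 was above library 23 by 0.79 on the log2 scale, with 116 and 78 counts (exact p = 1.71e-04, adjusted p = 0.0615). It passed the threshold with TMM factors, with DESeq2's size factors, with a minimum of 50 pooled counts and without library 20. This test compares libraries and covers counting error only.

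**Figure D5:**
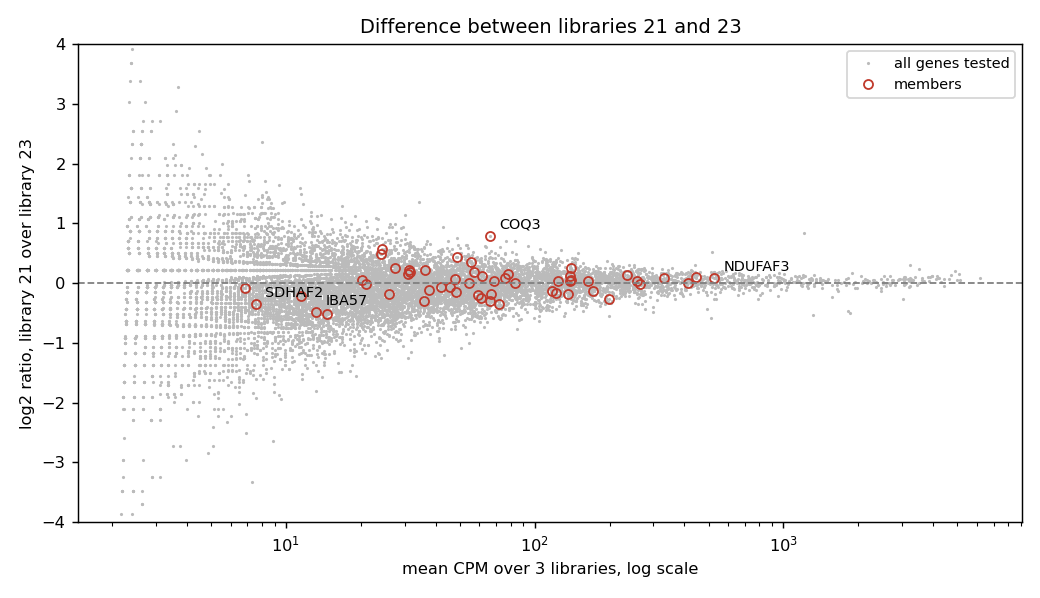
Log2 ratio of library 21 over library 23 against mean CPM on a log axis, for the 54 genes (red circles) and all genes tested (grey), of which 4 lie beyond the vertical limits. The 54 genes lie between -0.52 for PDSS2 and 0.79 for COQ3.

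The squared deviations among the 3 libraries, divided by those that counting error gives on average, had a median ratio of 0.812 in the 54 genes and 0.831 in all genes tested. It was above 1 in 21 of the 54 genes (38.9%), against 43.6% of all genes tested. Counting error alone puts the median of this skewed ratio below 1, so medians below 1 do not mean less spread than counting gives. COQ3 had the highest ratio of the 54, 7.69, followed by COQ7 at 3.78. Over the 8627 genes tested in the range of counts of the 54, the median ratio was 0.844. Libraries 20, 21 and 23 held the highest value for 19, 16 and 19 of the 54 genes and the lowest for 18, 15 and 21. Over all genes, calls between libraries fell to 8 without library 23, against 42 without library 20 and 59 without library 21.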

How the data were processed

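The authors deposited raw counts per gene for 3 HEK293 libraries, as whole numbers without normalization. Per the submitters' processing notes, cutadapt 1.2.1, STAR 2.4.0a and the build hg19 (GRCh37) were used. The sources used here do not give the counting tool, the annotation, the use of strand or the collapsing of the random molecular tags, so a count may stand for a read or for a molecule. The 3 columns were used as unnumbered replicates of 1 group. Replicates may be technical, and p-values then reflect no more than the spread among these 3 libraries.

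The 80 control RNA rows of the 17675 were left out of totals and tests. Genes with at least 10 pooled counts, 11424, were tested. Levels against the median gene used edgeR's quasi-likelihood F statistic for an intercept with an offset. It was computed from edgeR's fit, because its test function takes no design of 1 column. Libraries were compared pairwise by exact binomial tests (2-sided), given their gene totals. Benjamini-Hochberg adjustment covered all genes. Ratios used a pseudocount of 0.5, and shares have exact Clopper-Pearson 95% intervals. Lengths, overlaps and neighbours came from GENCODE release 29, promoters from RefSeq GRCh38.p14, by symbol.

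All 54 means entered the analysis; values per library were given for the highest and lowest gene of each group and for the pairs described, and genes of other lists were named as the highest 1 or 2. Members and lists were chosen with earlier results of these data known. Some genes of the marker and other lists are not reported here. Scripts were tested on simulated data. Alternatives covered scaling, filters, limma, DESeq2, pseudocounts, length scaling and leaving out each library. Tools were Python 3.11.15, numpy 2.4.6, pandas 2.3.3, scipy 1.17.1, matplotlib 3.10.9, R 4.3.3, edgeR 4.0.16, limma 3.58.1 and DESeq2 1.42.0.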

Additional observations from a re-analysis of the deposited data

How the results depend on the processing

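Depth limited the lowest genes, FDXR, SDHAF2, COX18 and IBA57, which rest on 30 to 58 pooled counts. The calls against the median gene depend on which genes define it. Without a minimum count, 7860 genes were higher and 7754 lower, 0 of the 54 were lower, and the log2 level over the median gene became 0.082 for SDHAF2, 0.68 for COX18, 0.90 for IBA57 and 1.04 for PDSS2. With filterByExpr, where the median gene stood at 32.8 CPM, 37 were higher and 8 lower, and the values became -0.46 for NDUFAF5, -0.44 for NDUFAF7, -0.65 for NUBPL, -0.34 for SDHAF1, -0.071 for TTC19, -0.26 for SURF1, -0.70 for ATPAF2, -0.070 for NFS1 and -0.082 for COQ2. With DESeq2 3 were lower, against 4206 of all 11424 genes tested. Leaving out each library in turn gave 42 to 44 of the 54 genes higher and 5 lower. Fewer genes were then tested, 10501 to 10718, of which 4445 to 4523 were higher and 4264 to 4300 lower. In these settings NUBPL stood at -0.093 to -0.085, ATPAF2 at -0.35 to -0.020 and NDUFAF5 at -0.019 to 0.28. Of 430 alternatives for single levels, 14 lost the call, 4 gained one, the 20 just given changed sign and the others kept direction and call. Between libraries, DESeq2's size factors called 114 genes, spike totals 250, TMM factors 79, and leaving out a library 8 (without library 23) to 59. COQ3 was the 1 gene of the 54 called with TMM factors, DESeq2's size factors or a minimum of 50 counts, and leaving out a library called 0 to 1. The cause was not tested. The median percentile of the 54 genes among genes tested was 77.7, and among protein-coding genes 80.2 per kilobase and 76.3 per transcript, the last chosen after the data were seen. With means in place of medians, the log2 ratio of assembly factors over subunits was -1.68 for complex I, -3.21 for II, -3.27 for III and -2.49 for IV. Per kilobase, added after the data were seen, it was -3.87, -1.40, -2.64 and -3.61 in the same order. Leaving out a library gave -3.07 to -2.77 for complex I and -4.39 to -4.24 for complex V. Of 120 alternatives for pair ratios, 103 moved by less than the SD, 16 moved further, all per kilobase, and GLRX5 over HSCB turned to -0.16 per kilobase. Signs also changed among the moves within the SD: without library 21, COQ9 over COQ7 became -0.0027 and COQ3 over COQ5 -0.15. No paired analysis was possible because the column headings carry no replicate number and there is 1 group.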
